A study of Mus musculus with 22 samples.

Results

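The TNF superfamily was read out across the study as the 31 genes whose symbol begins with Tnfsf (11 ligands) or Tnfrsf (20 receptors) followed by a number, of 35255 genes listed in at least 1 of 3 deposited count tables. The normoxia table listed 26 of them (9 ligands and 17 receptors), the hypoxia table all 31, and the tumor samples' table held 30 (11 ligands and 19 receptors). Family genes with other symbols, such as Tnf, Ltb, Fas and Cd40, are not members and were treated as a separate list. The study compared C57BL/6N mice with a knockout (KO) of VISTA, an inhibitory checkpoint protein of myeloid cells and T cells encoded by Vsir, with wild-type (WT) mice of the same background. Bone marrow myeloid progenitors were grown with GM-CSF and IL-6, a cytokine pair used to obtain myeloid-derived suppressor cells (MDSC), under normoxia, purified and harvested on day 4 (4 WT and 4 KO libraries). Further bone marrow myeloid cells of both genotypes were sampled at 24 hours of hypoxia (4 and 4 libraries). Tumor tissue of MC38, a mouse colon carcinoma line, was sampled on day 7 (3 and 3 libraries), and the labels used here do not say how its cells were obtained. The labels call the normoxia samples independent biological replicates and are silent for the others, so p-values there measure the spread between these libraries, which may be partly technical.

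Ligands of this family are trimeric proteins, mostly anchored in the membrane of immune cells, and their receptors carry cysteine-rich domains outside the cell. Receptors with a death domain, such as TNFR1, DR5 and DR6, can start caspase signalling, while many of the others recruit TRAF adaptors and turn on NF-kB, and decoy receptors bind a ligand without such signalling. In myeloid cells the family is known for BAFF and APRIL, which support B cells and plasma cells, for TNFR2, and for 4-1BBL, the ligand of a costimulatory receptor of T cells.

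The targeted gene Vsir averaged 177, 147 and 118 CPM (counts scaled to a common library size) in KO against 713, 546 and 459 CPM in WT normoxia, hypoxia and tumor samples, and the genotypes did not overlap. By an exact two-sided permutation test p was 0.0286 in both cultures and 0.1 in the tumor experiment, the smallest values these designs allow. Depth was even across normoxia (23409142 to 23722932 counts) and hypoxia libraries (30839108 to 31385825), while tumor WT libraries (27452024 to 31716200) were deeper than tumor KO libraries (19119985 to 23089943). Myeloid markers were abundant in the cultures, in which 10 neutrophil genes summed to 23195 to 61535 CPM per library. The tumor libraries were rich in leukocyte RNA (Ptprc, the CD45 gene, averaged 1006 CPM in WT) and in 10 monocyte and macrophage genes (14321 to 19203 CPM summed). The carcinoma genes Epcam, Krt8, Krt18 and Krt19 stayed at or below 5.47 CPM in each library. A wider list of 7 epithelial genes summed to 16.7 to 34.8 CPM in WT and 25.0 to 58.0 CPM in KO tumor libraries. Of this list 2 genes were tested for a KO effect in tumor and 0 were called. Values from bulk RNA cannot tell fewer cells of a type from less RNA per cell.

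RefSeq promoter windows (GRCm38.p6) were matched for 24 of the 31 members, and 4 are printed as the 250 bases before the annotated start. BAFF and its receptor TACI are shown because both rose in KO cultures of either oxygen condition. CD30 and LIGHT are shown because their windows hold motifs of inflammatory and hypoxia-linked factors. Capitals mark matches, on either strand and with overlaps allowed, to the AP-1 motif TGANTCA, the STAT motif TTCNNNGAA, the core ACGTG of hypoxia response elements, and the kappaB motif. Tnfsf13b lies at chr8:10006217-10006466 (plus strand), Tnfrsf13b at chr11:61126505-61126754 (plus strand), Tnfrsf8 at chr4:145315165-145315414 (minus strand) and Tnfsf14 at chr17:57194182-57194431 (minus strand).
Tnfsf13b: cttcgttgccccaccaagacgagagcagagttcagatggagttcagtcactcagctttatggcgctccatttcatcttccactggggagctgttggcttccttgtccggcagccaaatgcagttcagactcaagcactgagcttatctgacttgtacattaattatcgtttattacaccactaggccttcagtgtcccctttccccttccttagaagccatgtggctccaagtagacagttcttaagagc
Tnfrsf13b: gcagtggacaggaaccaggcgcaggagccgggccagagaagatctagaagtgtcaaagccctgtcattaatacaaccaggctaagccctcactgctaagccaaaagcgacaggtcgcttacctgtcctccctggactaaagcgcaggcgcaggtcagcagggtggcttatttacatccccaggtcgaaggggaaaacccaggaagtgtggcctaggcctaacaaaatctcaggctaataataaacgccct
Tnfrsf8: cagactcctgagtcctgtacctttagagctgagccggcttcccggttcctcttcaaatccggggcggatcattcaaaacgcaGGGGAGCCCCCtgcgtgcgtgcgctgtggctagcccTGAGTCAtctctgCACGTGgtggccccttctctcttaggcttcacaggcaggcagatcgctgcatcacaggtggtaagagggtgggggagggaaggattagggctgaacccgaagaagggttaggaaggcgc
Tnfsf14: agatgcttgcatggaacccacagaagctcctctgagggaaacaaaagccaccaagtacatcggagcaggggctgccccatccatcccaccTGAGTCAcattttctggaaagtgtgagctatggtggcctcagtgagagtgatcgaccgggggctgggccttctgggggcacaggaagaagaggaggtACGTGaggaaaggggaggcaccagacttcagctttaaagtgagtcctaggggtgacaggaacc
No match to the 4 motifs lay in the Tnfsf13b or Tnfrsf13b window, which says only that these letters are not there. The Tnfrsf8 window held kappaB, AP-1 and ACGTG matches, and it was the only 1 of the 24 member windows with kappaB, which 7.25% of all 32851 windows hold. AP-1 matches stood in 3 member windows (6.75% of all windows), STAT matches in 3 (7.02%) and ACGTG matches in 5 (16.6%). A match is a description of the letters and not a measured binding site.

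Levels differed widely among members. Per kilobase (kb) of exon, the receptor genes Tnfrsf1b (TNFR2) and Tnfrsf1a (TNFR1) ranked highest in WT cells of all 3 experiments, at 121 ± 18.2 and 73.8 ± 8.83 CPM per kb in normoxia, 97.5 ± 14.3 and 77.2 ± 6.49 in hypoxia (SD, n = 4 each), and 230 ± 13.0 and 104 ± 6.06 in tumor (SD, n = 3). These levels are scaled within each experiment. The gap between both receptors exceeded their summed SD in normoxia and tumor and was 0.97 of it in hypoxia. Tnfrsf13b (TACI) and Tnfrsf21 (DR6, a death domain receptor) followed, at 33.8 and 30.4 CPM per kb in normoxia WT, 31.5 and 25.7 in hypoxia WT, and 23.4 and 50.1 in tumor WT. In hypoxia WT, Tnfrsf21, Tnfrsf26 and Tnfrsf23 (25.7, 25.2 and 24.0 CPM per kb) did not differ beyond their spread. In tumor samples Tnfrsf11a (RANK, a receptor known from osteoclasts and dendritic cells) ranked just below Tnfrsf13b, within their spread, and reached 23.1 CPM per kb in WT against 0.37 in normoxia and 1.53 in hypoxia WT.

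Among ligands the order changed with the experiment. Tnfsf14 (LIGHT) led in WT cultures at 7.69 ± 1.30 CPM per kb in normoxia and 17.7 ± 1.77 in hypoxia (SD, n = 4 each). Tnfsf9 (4-1BBL) led in WT tumor samples at 21.1 ± 2.24 CPM per kb (SD, n = 3), ahead of Tnfsf14 at 8.24 and Tnfsf10 (TRAIL, a death ligand) at 7.16, a pair that did not differ beyond its spread. TRAIL was near the lower end in cultures, at 0.13 and 0.09 CPM per kb in normoxia and hypoxia WT. A WT mean of at least 1 CPM was reached by 19 of 26 members in normoxia, 20 of 31 in hypoxia and 22 of 30 in tumor. Members that stayed under 1 CPM in both genotypes numbered 5, 11 and 8, among them Tnfrsf19, Tnfrsf25, Tnfrsf11b (osteoprotegerin), Tnfrsf17 (BCMA) and Tnfsf18 (GITRL) wherever they were listed. These 5 named genes had too few counts for a test in any KO comparison.

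**Figure D1:**
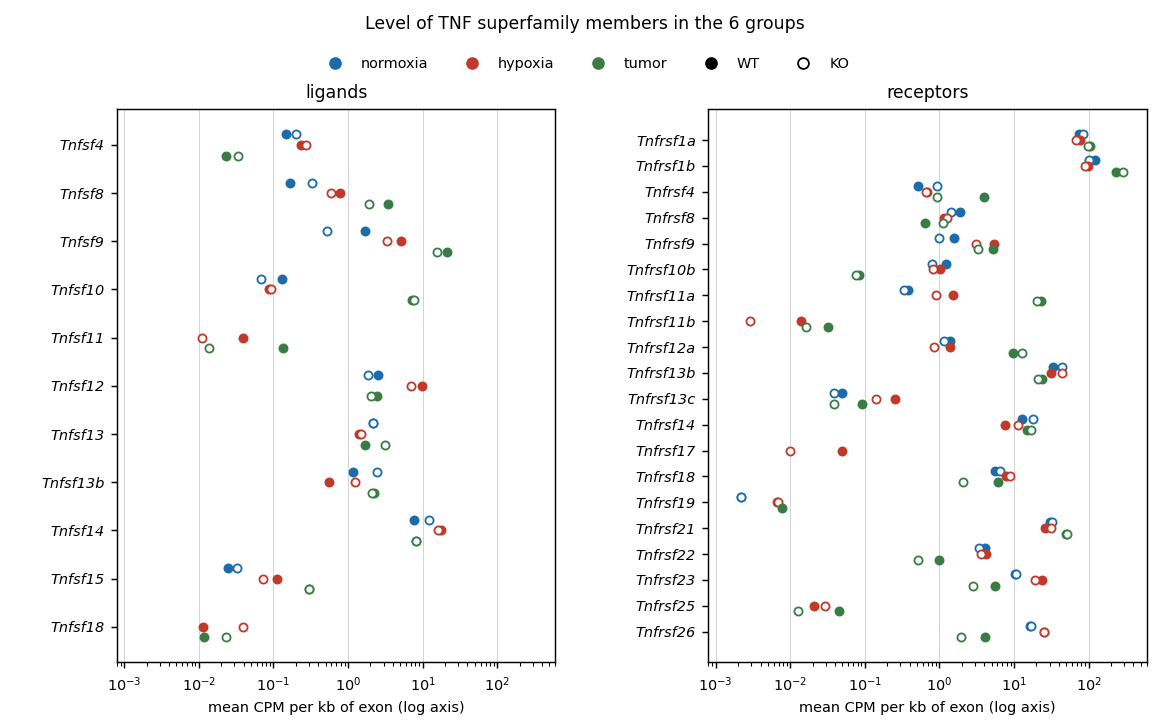
Mean level of each member in the 6 groups, in CPM per kb of exon on a log axis, with WT as filled and KO as open circles; a mean of 0 is not drawn. Tnfrsf1b and Tnfrsf1a lie farthest right in each WT group, and Tnfsf10 and Tnfrsf11a are far higher in tumor samples than in cultures.

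In normoxia cultures the loss of VISTA went with more RNA of 3 ligands and 2 receptors and with less of 1 ligand. BAFF (Tnfsf13b) was 2.10-fold and CD30L (Tnfsf8) 1.97-fold higher in KO, LIGHT (Tnfsf14) was 1.61-fold higher, and 4-1BBL (Tnfsf9) was 3.17-fold lower. The receptors TACI (Tnfrsf13b) and HVEM (Tnfrsf14) rose by 1.32-fold and 1.41-fold. Of 22 members with enough counts to be tested, 6 were called at an edgeR adjusted p under 0.05, 27.3% against 11.3% of all 13950 genes. The 5 higher calls compare with 7.13% of all genes called higher, and the 1 lower call with 4.17%. Of the 7 ligands tested 4 were called (57.1%) and of the 15 receptors 2 (13.3%), the latter close to the share of all genes. The median log2 fold change was 0.02 over the members and -0.02 over all genes. KO lay above WT in every library for 5 members (10.7% of all genes) and below it for 2 (9.33%), and 20% of all genes had no overlap in either direction. The 2 include TRAIL (Tnfsf10), which was tested only because its WT libraries passed the count filter. TRAIL is also included in the 22 members and 7 ligands tested.

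BAFF, the survival factor of B cells, had 8.38, 6.05, 9.85 and 7.81 CPM in the WT libraries and 12.3, 12.7, 19 and 23.5 CPM in the KO libraries. The genotypes did not overlap, and KO replicates 3 and 4 were the highest. Its log2 fold change was 1.07 ± 0.22 (SE; edgeR adjusted p = 0.0123). 4-1BBL, which costimulates T cells through 4-1BB, had 2.19, 2.04, 2.55 and 1.87 CPM in WT and 0.636, 0.545, 0.536 and 1.01 CPM in KO. Every KO library was below every WT library, and the log2 fold change was -1.66 ± 0.24 (edgeR adjusted p = 0.00269). Gm11110, a gene on the opposite strand that shares 14.9% of the exonic length of Tnfsf9, fell as well (-1.81, edgeR adjusted p = 0.0138), and without a stated strand setting their reads cannot be told apart.

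CD30L, the ligand of CD30, had 0.636, 0.654, 0.722 and 0.54 CPM in WT and 1.48, 1.43, 0.804 and 1.33 CPM in KO, with no overlap between the genotypes. The log2 fold change was 0.98 ± 0.25 (edgeR adjusted p = 0.0302). LIGHT, the ligand of HVEM, had 14.7, 12.3, 17.4 and 12.4 CPM in WT and 19.3, 17.7, 21.1 and 33.1 CPM in KO. Its groups were separated by the narrow step from WT replicate 3 to KO replicate 2, and its log2 fold change was 0.68 ± 0.19 (edgeR adjusted p = 0.0426). Without 1 of WT replicates 1, 2 and 4 or KO replicates 1 and 4 the CD30L call was lost (edgeR adjusted p from 0.0521 to 0.0923). The LIGHT call was lost without 1 of WT replicates 1, 2 and 4 or KO replicates 1 and 3 (edgeR adjusted p from 0.0503 to 0.118), and with no count filter (0.0583).

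Among receptors, TACI, which binds BAFF and APRIL, had 91.4, 92.2, 104 and 96.1 CPM in WT and 136, 116, 128 and 128 CPM in KO normoxia libraries. All KO libraries were above all WT libraries, with a log2 fold change of 0.40 ± 0.08 (edgeR adjusted p = 0.0123). HVEM, the receptor of LIGHT, had 19.3, 16.8, 19.4 and 17.7 CPM in WT and 25.2, 22.4, 21.3 and 34.5 CPM in KO. KO replicate 4 was far above the other KO libraries, which still lay above WT, and the log2 fold change was 0.50 ± 0.14 (edgeR adjusted p = 0.0468). The TACI call was lost without WT replicate 1 (edgeR adjusted p = 0.0556), and the HVEM call was lost without any 1 of the WT replicates or KO replicates 1 and 4 (from 0.0531 to 0.128). HVEM was also lost with library size alone as the scale (edgeR adjusted p = 0.0704) and with limma on the authors' normalized values (adjusted p = 0.0506). No direction of the 6 called members changed in these alternatives.

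The other 16 tested members were not called in normoxia, among them the receptors of 4-1BBL and CD30L. 4-1BB (Tnfrsf9) had 3.42, 1.8, 8.83 and 3.2 CPM in WT and 2.04, 2.98, 3.17 and 2.61 CPM in KO, which overlapped. CD30 (Tnfrsf8), the receptor of CD30L, also overlapped, with 6.72, 5.23, 7.98 and 6.02 CPM in WT and 4.07, 4.24, 5.63 and 6.05 CPM in KO. APRIL (Tnfsf13) had a log2 fold change of 0.01 ± 0.16. The widest values among uncalled members were -0.92 ± 0.32 for TRAIL (edgeR adjusted p = 0.0768) and 0.85 ± 0.26 for OX40 (Tnfrsf4, a T cell costimulatory receptor; edgeR adjusted p = 0.0572). TRAIL had passed the count filter through its WT libraries, since 4 of these and 1 KO library reached 0.423 CPM. Without WT replicate 3 the OX40 value was 1.10 and passed (edgeR adjusted p = 0.0228), as it did with DESeq2 (adjusted p = 0.0495). DR5 (Tnfrsf10b), the death receptor of TRAIL, had -0.62 ± 0.22 (edgeR adjusted p = 0.0867) and passed as lower without WT replicate 3 (0.041) or KO replicate 2 (0.0483), and with DESeq2 (0.0497).

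**Figure D2:**
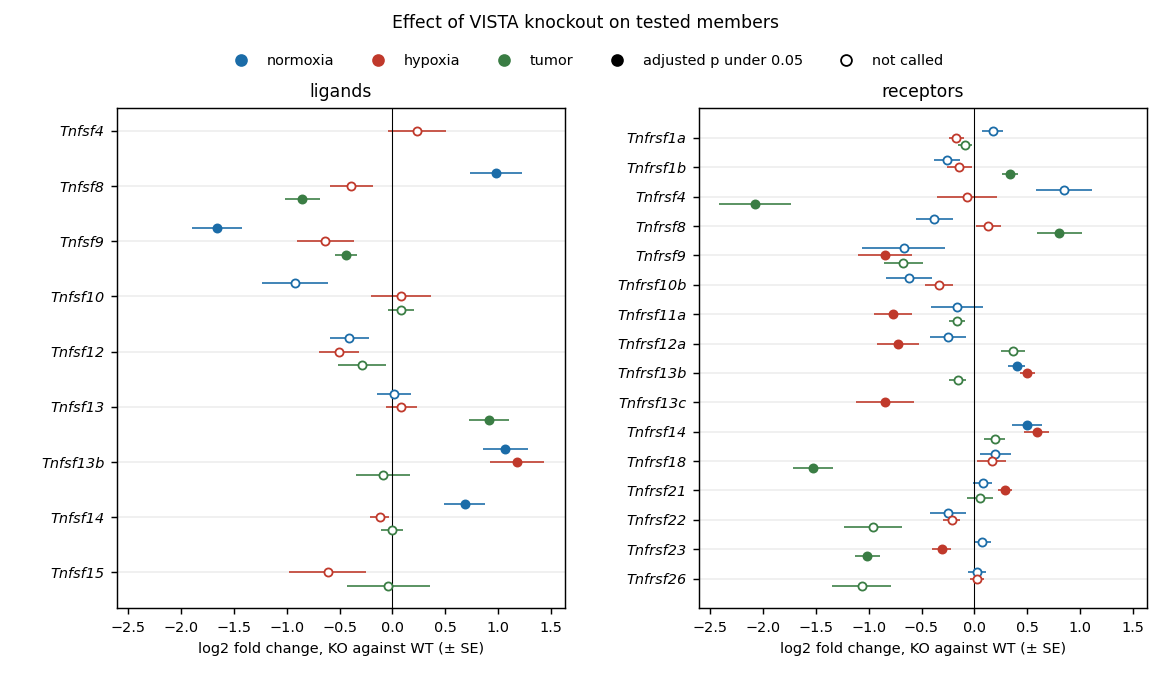
Log2 fold change of KO against WT (± SE) for each tested member in the 3 experiments, ligands at left and receptors at right, with filled circles for an edgeR adjusted p under 0.05. Tnfsf13b, Tnfrsf13b and Tnfrsf14 lie to the right in both cultures, and Tnfrsf4, Tnfrsf18 and Tnfrsf23 lie far to the left in tumor samples.

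In hypoxia cultures, BAFF (2.27-fold), HVEM (1.51-fold), TACI (1.42-fold) and DR6 (1.22-fold) were higher in KO. Lower were 5 receptors, BAFFR (Tnfrsf13c), 4-1BB, RANK, Fn14 (Tnfrsf12a, the receptor of TWEAK) and the decoy receptor of TRAIL encoded by Tnfrsf23, by 1.24-fold to 1.80-fold. BAFFR, which is included in these counts, was tested only because its WT libraries passed the count filter. With 9 of 25 tested members called (36%) and 34.9% of all 15018 genes called at the same edgeR threshold, the share of called members was close to that of all genes. By role, 1 of 9 ligands (11.1%) and 8 of 16 receptors (50%) were called. All genes called higher made up 17.4% and those called lower 17.6%. The median log2 fold change was -0.14 for the members and -0.01 for all genes. Genotypes did not overlap for 4 members with KO above WT (16.9% of all genes) and for 7 with KO below WT (15.7%), where 32.6% of all genes did not overlap in either direction.

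BAFF was the 1 ligand called among 9 tested. Its libraries had 4.47, 3.56, 3.02 and 4.04 CPM in WT and 10.9, 11.6, 4.61 and 7.09 CPM in KO, with KO replicate 3 just above the highest WT library. The log2 fold change was 1.18 ± 0.26 (edgeR adjusted p = 0.00566). 4-1BBL had 5.17, 7.78, 6.05 and 7.68 CPM in WT and 4.64, 2.11, 6.6 and 3.84 CPM in KO. These groups overlapped through KO replicate 3, and the value of -0.63 ± 0.27 was not called (edgeR adjusted p = 0.0932). It was called without that library (-0.92, edgeR adjusted p = 0.0166), with no count filter (0.00513) and by DESeq2 (0.0467). CD30L had 2.84, 3.49, 2.71 and 2.76 CPM in WT and 2.44, 2.34, 2.91 and 1.33 CPM in KO, with an uncalled log2 fold change of -0.39 ± 0.21. LIGHT had 30.5, 37.5, 31.2 and 31.4 CPM in WT and 32.8, 29.3, 32.2 and 25.9 CPM in KO, also uncalled (-0.12 ± 0.09). TWEAK (Tnfsf12), the ligand of Fn14, had -0.51 ± 0.19 (edgeR adjusted p = 0.0552) and passed as lower without KO replicate 3 (-0.70, 0.0113) and by DESeq2 (0.0265). A read-through gene on the same strand, Tnfsfm13, covers 48.3% of the exonic length of Tnfsf12 and 60.0% of that of Tnfsf13, so values of TWEAK and APRIL are uncertain in how their shared reads were counted.

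TACI had 92.6, 95.5, 84.1 and 85.3 CPM in WT and 119, 120, 136 and 133 CPM in KO hypoxia libraries. The groups were far apart relative to their spread, with a log2 fold change of 0.50 ± 0.07 (edgeR adjusted p = 0.000294). HVEM had 9.87, 12.1, 9.26 and 12.2 CPM in WT and 18.9, 14.4, 16.7 and 15.5 CPM in KO, again without overlap (0.59 ± 0.12, edgeR adjusted p = 0.00297). DR6 had 103, 117, 97 and 105 CPM in WT and 129, 138, 129 and 120 CPM in KO, a smaller and separate step (0.29 ± 0.07, edgeR adjusted p = 0.00843).

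RANK had 7.51, 10.9, 9.82 and 8.37 CPM in WT and 5.9, 4.35, 7.19 and 4.07 CPM in KO. The genotypes did not overlap, and the log2 fold change was -0.77 ± 0.18 (edgeR adjusted p = 0.00732). The ligand of RANK, RANKL (Tnfsf11), stayed at or under 0.128 CPM in each hypoxia library and was not tested. 4-1BB had 12.1, 20.2, 12.2 and 15.1 CPM in WT and 11.9, 8.74, 7.91 and 4.62 CPM in KO, just short of overlap (-0.84 ± 0.25, edgeR adjusted p = 0.0262). Fn14 had 2.81, 2.95, 2.77 and 2.19 CPM in WT and 2.27, 1.22, 1.7 and 1.3 CPM in KO. KO replicate 1 lay inside the WT range, and the log2 fold change was -0.72 ± 0.20 (edgeR adjusted p = 0.0163).

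The TRAIL decoy Tnfrsf23 had 91.1, 114, 84.2 and 91 CPM in WT and 79.4, 75.6, 81.2 and 71 CPM in KO, without overlap (-0.31 ± 0.09, edgeR adjusted p = 0.021). BAFFR, which transmits the survival signal of BAFF in B cells, had 0.479, 0.609, 0.405 and 0.595 CPM in WT and 0.367, 0.297, 0.262 and 0.228 CPM in KO (-0.85 ± 0.27, edgeR adjusted p = 0.0315). It passed the count filter through its WT group, in which 4 libraries reached 0.323 CPM against 1 in KO, so its place among the tested genes depended on WT being higher. Leaving out KO replicate 2 ended the calls of Fn14 (edgeR adjusted p = 0.0511), Tnfrsf23 (0.0548) and 4-1BB (0.0545), and 4-1BB was also lost without KO replicate 3 (0.0655) or WT replicate 2 (0.0656) and with no count filter (0.139). The BAFFR call was lost without 1 of 6 libraries, WT replicates 1, 2 and 4 and KO replicates 2, 3 and 4 (edgeR adjusted p from 0.052 to 0.0754), with no count filter (0.103) and with DESeq2 (0.0867). RANK, DR6, TACI, HVEM and BAFF kept their calls in each alternative run. Among uncalled members, DR5 passed as lower without WT replicate 2 (-0.38, edgeR adjusted p = 0.0469). Tnfrsf22, also a TRAIL decoy, was just short of a call (-0.22, edgeR adjusted p = 0.0513). It passed as lower in 5 of 14 alternatives. In edgeR these were without KO replicate 1 (-0.25, adjusted p = 0.0408), with RLE scaling (0.0495) and with library size alone (0.0274). The others were DESeq2 (adjusted p = 0.0365) and limma on the authors' normalized values (0.0428).

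**Figure D3:**
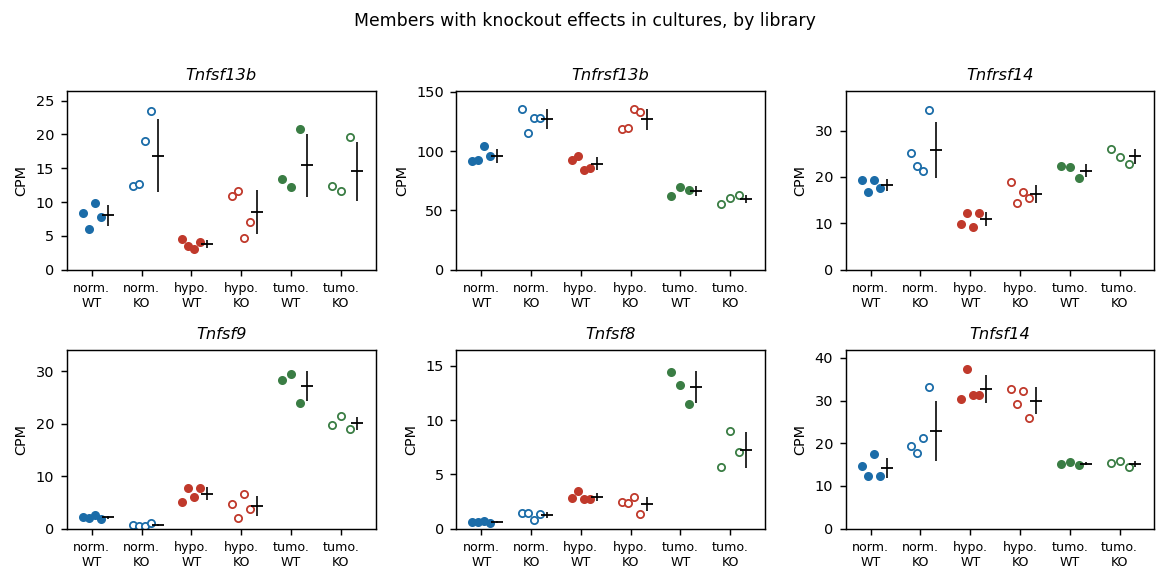
CPM per library of 6 members in the 6 groups (norm. is normoxia, hypo. hypoxia and tumo. tumor), WT filled and KO open, with mean ± SD beside the points. Tnfsf13b, Tnfrsf13b and Tnfrsf14 have all KO culture libraries above the WT libraries of the same experiment, and this order is not seen in tumor samples for Tnfsf13b and Tnfrsf13b.

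Cell type markers moved with genotype in both cultures, where 11.3% (normoxia) and 34.9% (hypoxia) of all genes were called. The monocyte and macrophage list had 3 of 10 markers higher in normoxia, and 2 higher and 1 lower in hypoxia. T and NK cell markers had 0 of 2 tested called in normoxia and 2 of 3 higher in hypoxia. Of 10 neutrophil markers 7 rose in normoxia and 9 in hypoxia, and all mast cell and basophil markers tested rose (7 and 8). Of eosinophil markers tested 3 of 6 rose in normoxia and 7 of 7 in hypoxia, while of dendritic cell markers 4 of 8 rose in normoxia, and 1 of 10 rose and 1 fell in hypoxia (394 to 599 CPM summed in WT and 197 to 456 CPM in KO). All 3 erythroid markers tested fell in hypoxia, with sums of 23.7 to 80.2 CPM in WT and 5.67 to 11.8 CPM in KO, and none could be tested in normoxia. Of the B cell and plasma cell markers tested, 3 of 5 rose in normoxia and 3 of 6 in hypoxia, where 1 fell, and the list summed to 34.8 to 48.7 CPM in WT and 79.3 to 111 CPM in KO normoxia libraries, and to 67.7 to 80.1 and 111 to 180 CPM in hypoxia. The part of these cell types in the members' changes was not tested.

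In MC38 tumor samples, 3 receptors and 2 ligands fell in KO and 2 receptors and 1 ligand rose. OX40 (Tnfrsf4) was 4.22-fold, GITR (Tnfrsf18) 2.88-fold and the TRAIL decoy Tnfrsf23 2.02-fold lower, and the ligands CD30L and 4-1BBL were 1.81-fold and 1.35-fold lower. APRIL (Tnfsf13, 1.88-fold), CD30 (Tnfrsf8, 1.75-fold) and TNFR2 (Tnfrsf1b, 1.26-fold) were higher. Of 22 members tested, 8 were called (36.4%), while 6.32% of all 14370 genes were called at the same edgeR threshold, 3.28% higher and 3.04% lower. By role, 3 of 8 ligands (37.5%) and 5 of 14 receptors (35.7%) were called. The median log2 fold change was -0.12 over members and 0.01 over all genes. KO lay above WT in every library for 5 members and below it for 9, where 13% of all genes did so in each direction and 26.1% in either. Same-numbered WT and KO tumor libraries correlated only weakly after removal of group means (0.258, 0.109 and 0.338), though each best with its own number. Whether the numbers pair these libraries is therefore uncertain. A fit with the replicate number as a block is given as an alternative where it moves a call. The block called 8 members lower and 4 higher, and it also called more of all genes (2266, against 908 without it).

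APRIL, a ligand of TACI and BCMA, had 2.85, 2.6 and 2.75 CPM in WT and 4.49, 5.05 and 5.93 CPM in KO tumor libraries. Each KO library was above each WT library, with a log2 fold change of 0.91 ± 0.19 (edgeR adjusted p = 0.0129). The read-through gene Tnfsfm13, which shares exons with it, had 0.62 ± 0.35 and was not called. CD30L had 14.4, 13.3 and 11.5 CPM in WT and 5.71, 9.01 and 7.02 CPM in KO, without overlap (-0.85 ± 0.17, edgeR adjusted p = 0.00975). 4-1BBL had 28.3, 29.4 and 23.9 CPM in WT and 19.8, 21.5 and 19 CPM in KO, also without overlap (-0.44 ± 0.11, edgeR adjusted p = 0.0272), and Gm11110 on the opposite strand fell beside it (-0.57, 0.038). Leaving out WT replicate 2 ended the calls of APRIL (0.0539), CD30L (0.0505) and 4-1BBL (0.112) in edgeR. APRIL was also lost without KO replicate 2 (edgeR adjusted p = 0.0564), and 4-1BBL without WT replicate 1 or any 1 KO library (0.0545 to 0.11).

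BAFF did not differ by genotype beyond its spread in tumors, with 13.4, 12.2 and 20.8 CPM in WT and 12.4, 11.7 and 19.6 CPM in KO (-0.09 ± 0.26, edgeR adjusted p = 0.899). Replicate 3 was the highest in both genotypes. TACI had 62, 69.8 and 67.4 CPM in WT and 55.7, 60.1 and 62.9 CPM in KO, which overlapped (-0.16 ± 0.08). LIGHT ranged from 14.4 to 15.9 CPM over all 6 tumor libraries, and its receptor HVEM had 22.4, 22.1 and 19.7 CPM in WT and 26.1, 24.3 and 22.9 CPM in KO (0.19 ± 0.10, not called). TRAIL was not called either (0.08 ± 0.12).

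OX40, a costimulatory receptor of activated and regulatory T cells, had 5.27, 4.07 and 6.67 CPM in WT and 0.915, 0.802 and 2.12 CPM in KO. Every KO library was lower than every WT library (-2.08 ± 0.34, edgeR adjusted p = 0.00396). GITR, also a costimulatory receptor of T cells, had 9.8, 7.22 and 10.6 CPM in WT and 2.92, 2.97 and 3.71 CPM in KO (-1.53 ± 0.19, edgeR adjusted p = 0.000498). Both genes are neighbours, 9552 bases apart within chr4:156013843-156028895. An antisense gene shares 27.2% of the exonic length of Tnfrsf18. 4-1BB had 12.8, 11.3 and 18.5 CPM in WT and 8.19, 8.3 and 10.2 CPM in KO. Its groups did not overlap but its value of -0.67 ± 0.18 was not called (edgeR adjusted p = 0.0538). It was called with the replicate block (-0.65, edgeR adjusted p = 0.00067), by DESeq2 (0.00745), and without KO replicate 3 (-0.78, 0.0277) or WT replicate 2 (-0.82, 0.038). The ligands of OX40 and GITR, Tnfsf4 and Tnfsf18, stayed at or under 0.0962 and 0.142 CPM in tumor libraries and were not tested.

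T cell markers moved in the same direction in these libraries. Of 12 T and NK cell markers 11 were tested and 5 fell, among them Cd28 (-1.91), Foxp3 (-1.93) and Cd3e (-1.70), and 0 rose. Of all genes 3.04% fell. The summed list was 21.2, 22.5 and 41.1 CPM in WT and 9.02, 8.68 and 14.7 CPM in KO. Within each genotype replicate 3 had both the highest sum and the highest OX40, GITR and 4-1BB values. This order was not particular to T cell markers. Replicate 3 of each genotype also had the highest monocyte and macrophage sum (18049 CPM in WT and 19203 CPM in KO). The same held for dendritic cell (7699 and 13669 CPM) and B and plasma cell sums (60.6 and 74.2 CPM). Its mast cell and basophil sum was the lowest (14.2 and 27.0 CPM). The part of T cell RNA in the fall of OX40, GITR and 4-1BB was not tested. The T and NK cell list summed to 19.3 to 25.8 CPM in WT and 20.7 to 33.0 CPM in KO normoxia libraries, with 0 of 2 tested markers called. In hypoxia the sums were 19.1 to 22.6 CPM in WT and 33.1 to 39.8 CPM in KO, and 2 of 3 tested markers rose. Of the 12 markers, 9 in normoxia and 10 in hypoxia were unlisted or under 1 CPM in every library, against 3 in tumor. Cd3e stayed at or under 0.719 CPM in cultures, and GITR was at 7.43 to 15.4 CPM in culture libraries of both genotypes.

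Tnfrsf22, Tnfrsf23 and Tnfrsf26 lie side by side in chr7:143607659-143685872 on the minus strand. Tnfrsf23 had 23, 19.9 and 23.9 CPM in WT and 10.2, 10.9 and 12 CPM in KO tumor libraries, a wide separation (-1.01 ± 0.12, edgeR adjusted p = 0.000251). Tnfrsf22 had 3.39, 4.84 and 4.42 CPM in WT and 2.48, 1.27 and 2.73 CPM in KO, and Tnfrsf26 had 12.4, 11.9 and 14.6 CPM in WT and 3.83, 5.33 and 9.54 CPM in KO. Both were lower in each KO library, yet neither was called, at -0.96 ± 0.27 and -1.07 ± 0.28 (edgeR adjusted p = 0.0593 for each). With the replicate block both were called (-0.98, edgeR adjusted p = 0.0121, and -1.12, 0.000153), as they were by DESeq2 (adjusted p = 0.0187 and 0.000262) and without KO replicate 3 (-1.16, 0.0311, and -1.51, 0.000148). In cultures all 3 genes were higher than in tumors, with 10.3 to 20.9 CPM of Tnfrsf22, 37.2 to 114 CPM of Tnfrsf23 and 47.2 to 89.6 CPM of Tnfrsf26. Tnfrsf22 and Tnfrsf26 were not called there by genotype in the main fits, and Tnfrsf22 was called as lower in hypoxia KO in 5 of 14 alternatives.

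TNFR2, a receptor of TNF that is abundant on myeloid cells and regulatory T cells, had 829, 929 and 876 CPM in WT and 1068, 1071 and 1188 CPM in KO tumor libraries. KO was above WT throughout (0.34 ± 0.07, edgeR adjusted p = 0.0183). CD30, the receptor of CD30L, had 2.15, 1.99 and 2.5 CPM in WT and 3.49, 4.15 and 3.97 CPM in KO (0.81 ± 0.21, edgeR adjusted p = 0.0396), so it rose where its ligand fell. The TNFR2 call was lost without 1 of WT replicates 1 and 3 or any 1 KO library (edgeR adjusted p from 0.0535 to 0.0909), and that of CD30 without 1 of WT replicates 1 and 2 or any 1 KO library (0.0718 to 0.161). Fn14 had 21, 16.8 and 18.9 CPM in WT and 27, 24.5 and 21.7 CPM in KO without a call (0.37 ± 0.12, edgeR adjusted p = 0.0862), and it was called with the replicate block (0.0107) and without KO replicate 3 (0.44, 0.039). TNFR1 (-0.09), DR6 (0.05) and RANK (-0.16) were not called. Of 10 dendritic cell and MHC class II markers 6 rose in these KO libraries, with sums of 5642 to 7699 CPM in WT and 9586 to 13669 CPM in KO. So did 3 of 4 erythroid markers (60.4 to 95.2 and 120 to 131 CPM), beside 3.28% of all genes. Neutrophil sums (269 to 302 CPM in WT and 344 to 396 CPM in KO) did not overlap either. The same held for fibroblast and endothelial sums (429 to 525 and 543 to 661 CPM). Sums of 6 leukocyte genes were also separate (12537 to 17752 and 18467 to 22662 CPM). Monocyte and macrophage sums overlapped, and 0 of these 10 markers were called. The part of the cells of these lists in the rise of TNFR2, CD30 and APRIL was not tested.

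**Figure D4:**
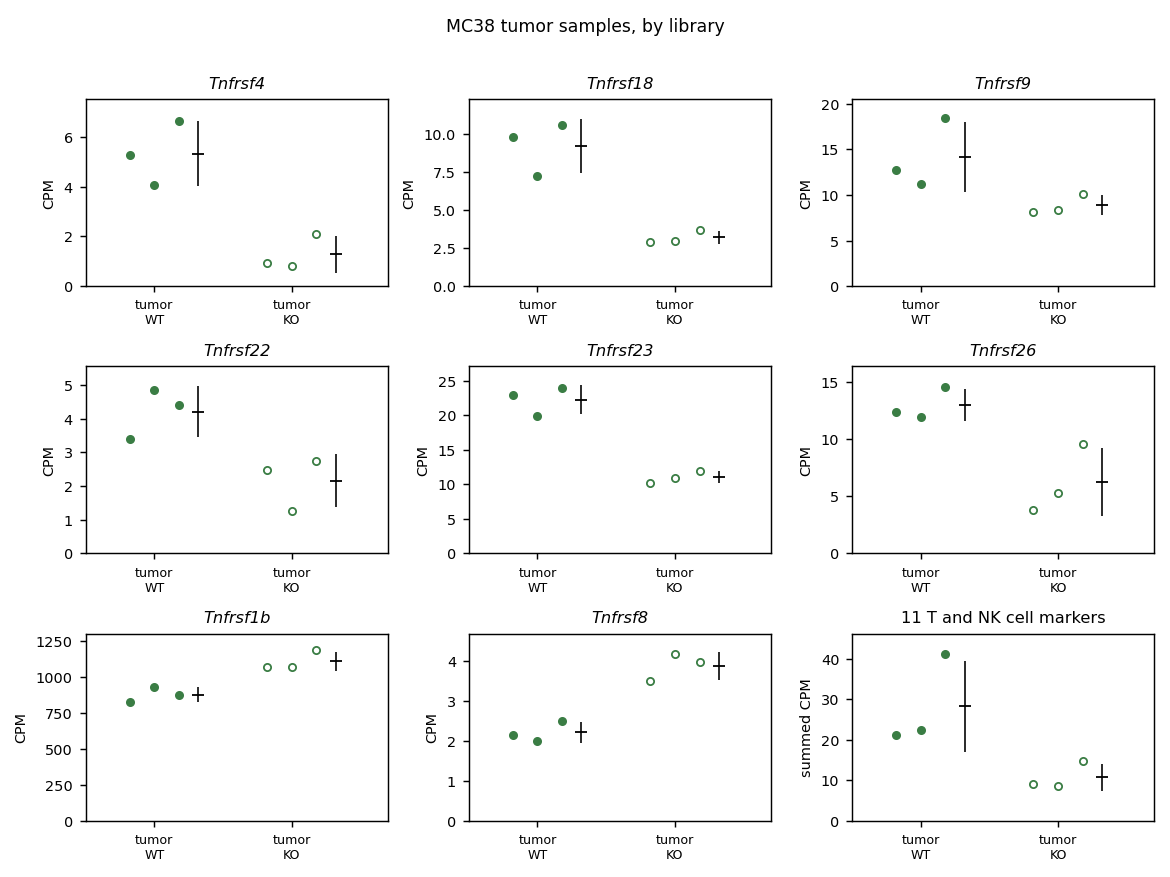
CPM per tumor library of 8 receptors and the summed CPM of 11 T and NK cell markers, WT filled and KO open, with mean ± SD beside the points. Tnfrsf4, Tnfrsf18, Tnfrsf9, Tnfrsf22, Tnfrsf23 and Tnfrsf26 and the marker sum are lower in all KO libraries, and Tnfrsf1b and Tnfrsf8 are higher.

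In hypoxia, CD30L, TWEAK, 4-1BBL, RANK and 4-1BB were higher than in normoxia in both genotypes, and BAFF, APRIL and HVEM were lower. These contrasts confound oxygen with the length of culture and with the table a library belongs to, so those cannot be told apart. In WT, 10 members were higher and 4 lower in hypoxia among 24 tested (58.3% called against 53.3% of all 14545 genes by edgeR). The 10 include BAFFR, which no normoxia library brought to the count filter and which was tested only through the hypoxia libraries. In KO, 9 were higher and 3 lower among 23 tested (52.2% against 47.9% of 14641 genes). Both shares were near those of all genes. By role, 6 of 8 ligands were called in each genotype (75%), and 8 of 16 receptors in WT (50%) and 6 of 15 in KO (40%). The median log2 change was 0.33 over WT members and 0.21 over KO members, with -0.03 and -0.01 over all genes. Markers of other cells differed too: 7 of 8 mast cell, 6 of 7 eosinophil and 9 of 10 dendritic cell markers were higher in WT hypoxia, and 8 of 8, 7 of 7 and 7 of 9 in KO hypoxia. All 3 erythroid markers tested were higher in both genotypes, from sums of at most 0.357 CPM per normoxia library. Of 10 neutrophil markers 2 were higher and 5 lower in WT, and 1 higher and 3 lower in KO. Their part in the members' changes was not tested.

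Ligands gave some of the widest changes. CD30L rose by 2.30 ± 0.18 on the log2 scale in WT and by 0.96 ± 0.27 in KO (edgeR adjusted p = 6.89e-07 and 0.0116). TWEAK had 3.97, 3.39, 4.92 and 2.91 CPM in WT and 2.97, 3.06, 2.37 and 3.03 CPM in KO normoxia libraries, and 13, 19.7, 14.2 and 13 CPM in WT and 10.9, 8.9, 14.4 and 7.9 CPM in KO hypoxia libraries, scaled within each experiment. All hypoxia libraries were above all normoxia libraries of either genotype. TWEAK rose 4.23-fold in WT and 4.01-fold in KO, and 4-1BBL rose on the log2 scale by 1.73 ± 0.17 and 2.78 ± 0.36. LIGHT rose by 1.30 ± 0.12 in WT (edgeR adjusted p = 1.77e-06) and by 0.52 ± 0.18 in KO (0.0295). BAFF and APRIL, the B cell ligands, fell in both genotypes, with values of -0.99 ± 0.16 and -0.51 ± 0.16 in WT and -0.85 ± 0.29 and -0.41 ± 0.15 in KO. The WT call of APRIL was lost without normoxia WT replicate 1 or 4 or hypoxia WT replicate 3 (edgeR adjusted p from 0.0534 to 0.0571). With no count filter the KO calls of BAFF (edgeR adjusted p = 0.101) and APRIL (0.0618) were lost. In KO the BAFF call was lost without normoxia KO replicate 3 or 4 or hypoxia KO replicate 3 or 4 (0.0623 to 0.117), the APRIL call without normoxia KO replicate 2 or 3 or any 1 hypoxia KO library (0.0534 to 0.0975), and the LIGHT call without 1 of normoxia KO replicates 1 to 3 or hypoxia KO replicates 1 to 3 (0.0524 to 0.0883).

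RANK, at 2.46, 1.88, 2.72 and 1.91 CPM in WT and 1.82, 1.47, 1.65 and 3.07 CPM in KO normoxia libraries, was below each hypoxia library. Among receptors, RANK rose by 2.13 ± 0.16 in WT and 1.55 ± 0.26 in KO, and 4-1BB by 1.90 ± 0.38 and 1.74 ± 0.26. Tnfrsf23 rose by 1.34 ± 0.10 and 0.98 ± 0.08, Tnfrsf26 by 0.71 ± 0.08 and 0.73 ± 0.07, and GITR by 0.57 ± 0.14 and 0.56 ± 0.15. HVEM fell in both genotypes (-0.65 ± 0.11 and -0.53 ± 0.15), and CD30 fell in WT (-0.58 ± 0.14) but was not called in KO (-0.05 ± 0.15). CD30 had 3.8, 4.32, 3.58 and 4.42 CPM in WT and 4.5, 3.99, 4.64 and 4.55 CPM in KO hypoxia libraries, so that only the WT libraries of the 2 cultures did not overlap. BAFFR rose in WT (2.39 ± 0.41) from at most 0.199 CPM in normoxia, where it was under the count filter, so its test depended on the hypoxia group. TACI, the third most abundant receptor per kb in WT cultures, was not called in WT (0.00 ± 0.07) or KO (0.12 ± 0.08).

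**Figure D5:**
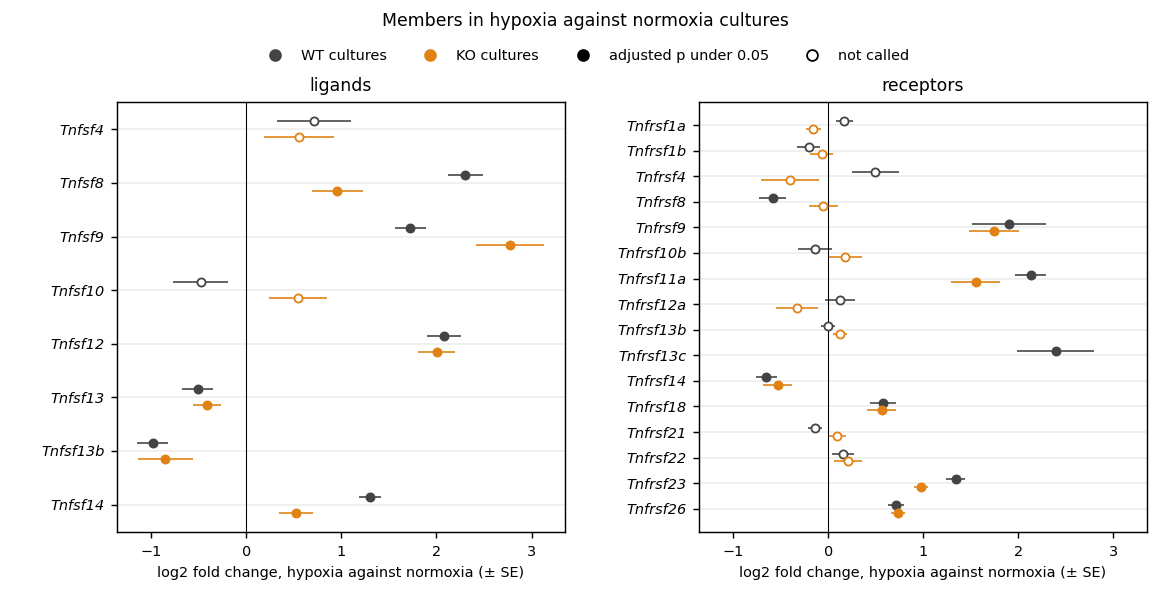
Log2 fold change of hypoxia against normoxia cultures (± SE) for each tested member in WT and KO, with filled circles for an edgeR adjusted p under 0.05. Tnfsf8, Tnfsf9, Tnfsf12, Tnfrsf9 and Tnfrsf11a lie to the right in both genotypes, and Tnfsf13b, Tnfsf13 and Tnfrsf14 to the left.

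The difference between the KO effects of the 2 cultures was tested directly for 24 members. With edgeR 0 were called at an adjusted p under 0.05 (0.477% of all 15293 genes were), and 8 had an unadjusted p under 0.05. With DESeq2 1 was called, among 200 genes called in all, and 7 had an unadjusted p under 0.05. The share of all genes with an unadjusted p under 0.05 is not given here, so these counts show no excess of members. The DESeq2 call was CD30L, whose KO effect was lower in hypoxia than in normoxia by -1.37 on the log2 scale (DESeq2 adjusted p = 0.0232; edgeR -1.37 ± 0.34, adjusted p = 0.0886), and without hypoxia KO replicate 3 it was called by edgeR too (-1.51, 0.0442). For LIGHT the difference was -0.81 ± 0.23 (edgeR adjusted p = 0.18) and for 4-1BBL 1.03 ± 0.41 (0.469). BAFF, TACI and HVEM had differences of 0.11 ± 0.38, 0.10 ± 0.10 and 0.10 ± 0.20, all uncalled.

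Differences between tumor and culture KO effects were also tested, a choice made after the data were seen. In these tests the tissue and the table cannot be told apart. Against normoxia 8 of 24 members were called by edgeR, 2 higher and 6 lower (4.22% of all 15441 genes, 1.42% higher and 2.8% lower). Against hypoxia 8 of 25 were called, again 2 higher and 6 lower (10.2% of 16577 genes, 3.82% and 6.42%). OX40 (-2.97 ± 0.45 and -2.05 ± 0.46), GITR (-1.77 ± 0.24 and -1.74 ± 0.23), Tnfrsf23 (-1.13 ± 0.13 and -0.75 ± 0.14), Tnfrsf26 (-1.14 ± 0.26 and -1.15 ± 0.25) and TACI (-0.60 ± 0.12 and -0.71 ± 0.11) had lower KO effects in tumors in both tests. CD30L differed from normoxia by -1.88 ± 0.31, 4-1BBL by 1.18 ± 0.25 and CD30 by 1.14 ± 0.26, while Fn14 (1.05 ± 0.23), APRIL (0.78 ± 0.23) and Tnfrsf22 (-0.80 ± 0.24) differed from hypoxia. BAFF had -1.20 ± 0.36 and -1.31 ± 0.41 and was not called by edgeR (adjusted p = 0.0788 and 0.0597), and DESeq2 called both differences (0.0198 and 0.0082). With the replicate block edgeR called both BAFF differences too (adjusted p = 0.00293 and 0.00485), and against normoxia those of TNFR2 (0.54, 0.0426) and TRAIL (0.95, 0.0365). In these tests the block also paired culture libraries by number, and same-numbered culture libraries correlated by only -0.275 to 0.488. Without tumor KO replicate 2 the normoxia differences of Tnfrsf26 (edgeR adjusted p = 0.0681) and CD30 (0.0609) were lost, and CD30 was lost without tumor WT replicate 2 as well (0.0627). That of Tnfrsf26 was also lost with library size alone (0.0541), and so was the hypoxia difference of Tnfrsf22 (0.0686). The hypoxia difference of Tnfrsf22 was lost without hypoxia WT replicate 1 or 3, hypoxia KO replicate 1 or 2, tumor WT replicate 2 or 3 or tumor KO replicate 2 (edgeR adjusted p from 0.0579 to 0.131). That of APRIL was lost without hypoxia WT replicate 1, 2 or 4, hypoxia KO replicate 4, tumor WT replicate 2 or 3 or tumor KO replicate 2 or 3 (0.0507 to 0.0887), also with no count filter (0.0702), and both were lost with the replicate block (0.0876 and 0.0731).

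The rest of the pathway was followed with 4 lists, whose calls stand beside 11.3%, 34.9% and 6.32% of all genes called in normoxia, hypoxia and tumor. Of the family ligands with other symbols, Ltb, a lymphotoxin subunit, rose in normoxia (0.47) and hypoxia (0.51), the only call among 2 and 3 tested. In tumor Ltb was the only call of 2 tested and fell, from 3.73 ± 0.577 CPM in WT to 1.86 ± 0.612 CPM in KO (edgeR adjusted p = 0.0411). Tnf itself had 67.1 ± 18.7 CPM in WT and 48.6 ± 12.5 in KO normoxia cultures, 33.6 ± 7.50 and 25.0 ± 4.30 in hypoxia (SD, n = 4 each), and 22.0 ± 0.59 and 28.2 ± 3.06 in tumor (SD, n = 3 each), with no KO call in edgeR. Of the other receptors, Relt rose in normoxia (0.29), hypoxia (0.20) and tumor (0.31), Ltbr fell in hypoxia (-0.21), and the death receptor Fas (0.60) and Cd40 (0.48) rose in tumor.

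Among 26 adaptor and death signalling genes, 0 rose and 3 fell in normoxia (Tnfaip3 -0.50, Traf1 -0.49 and Tnip1 -0.33), and 5 rose and 8 fell in hypoxia (with Ripk3 at -0.52, Tank at 0.30, Casp8 at -0.30 and Cflar at 0.29). In tumor 5 rose and 0 fell, among them Traf1 (0.66), Traf5 (0.51), Tnip1 (0.31) and Tnfaip3 (0.32). Of 16 NF-kB subunits and feedback targets, 1 rose and 2 fell in normoxia (Nfkbiz 0.37, Icam1 -0.46 and Bcl2a1d -0.62) and 0 rose and 6 fell in hypoxia, among them Bcl2a1d (-0.81), Bcl2a1b (-0.70), Icam1 (-0.42) and Nfkbib (-0.21). In tumor 5 rose and 0 fell, with Bcl3 (0.43), Nfkb1 (0.33), Rel (0.45) and Nfkb2 (0.30). The medians over the NF-kB list were -0.07, -0.16 and 0.22 in normoxia, hypoxia and tumor, beside -0.02, -0.01 and 0.01 over all genes, and those over the adaptor list 0.05, -0.07 and 0.09. In hypoxia 17.4% of all genes rose and 17.6% fell, and the total of 6 calls among 16 NF-kB genes was near the share of all genes called in either direction. Bcl2a1b and Bcl2a1d are near-identical copies, so the split of reads between them is uncertain. These counts are given as descriptions of lists that were chosen with earlier results of these data known.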

How the data were processed

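Total RNA of 22 samples was made into libraries with a Takara SMART-Seq kit, as the labels' protocols state. Reads had been counted per Ensembl gene by the authors. Build GRCm38.p6 and the tools Subread, featureCounts and DESeq2 are named, without version, per the submitters' processing notes. The deposited raw counts were used for all main results. The authors' DESeq2-normalized signal, which the deposited tables give as the counts times 1 factor per library, served 1 alternative. Listed genes have at least 2 counts over their table. Genes without a symbol, 25.8%, 31.1% and 26.0% of the normoxia, hypoxia and tumor tables, hold 3.54%, 3.31% and 1.49% of counts and could not be matched to the family. No source used here gives the strand setting. In the culture tables KO columns bear a code in place of the genotype, and were read as KO by elimination.

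Each experiment was fitted over all genes with edgeR 4.0.16 in R 4.3.3 (filterByExpr, TMM scaling, robust quasi-likelihood test, Benjamini-Hochberg over all tested genes, threshold 0.05). The 16 culture libraries were fitted together for the difference of KO effects, and 8 per genotype for hypoxia against normoxia. DESeq2 1.42.0, limma 3.58.1, other scalings, no count filter, a replicate block and left-out libraries were alternatives. CPM use TMM-adjusted library sizes. Exonic lengths came from GENCODE M21. The fits were tested on simulated data.

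No main fit paired libraries by replicate number, and the replicate block was an alternative in each comparison. Same-numbered tumor libraries correlated by 0.258, 0.109 and 0.338 after removal of group means. Members called in a KO comparison or in a difference of effects, and their partners, are given by library, the others by ranges and counts. Up to 4 genes with the smallest p are named per list. Members and lists were chosen with earlier results of these data known.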

Additional observations from a re-analysis of the deposited data

Results flagged for a closer look

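Within groups of 4 libraries, 6 of 94 groups had 1 library that stood apart from the other 3 in CPM, and chance flags about 1 in 20 groups. TNFR1 (Tnfrsf1a) was at 226 CPM in normoxia WT replicate 3 (others 179 to 181) and at 164 CPM in hypoxia KO replicate 4 (others 181 to 183). Hypoxia WT replicate 2 was high for LIGHT (Tnfsf14; 37.5 CPM, others 30.5 to 31.4) and for CD30L (Tnfsf8; 3.49 CPM, others 2.71 to 2.84). DR5 (Tnfrsf10b) was at 6.89 CPM in hypoxia WT replicate 4 (others 5 to 5.3), and TWEAK (Tnfsf12) at 2.37 CPM in normoxia KO replicate 3 (others 2.97 to 3.06).

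The KO effect of 8 members differed between tumor and normoxia by an interaction test (edgeR adjusted p in parentheses, on the log2 scale, tumor minus normoxia). These were Tnfrsf4 -2.97 (0.000818), Tnfsf8 -1.88 (0.00182), Tnfrsf18 -1.77 (0.000327), Tnfrsf26 -1.14 (0.0199), Tnfrsf23 -1.13 (3.56e-05), Tnfrsf13b -0.60 (0.00691), Tnfrsf8 1.14 (0.0204) and Tnfsf9 1.18 (0.0114). In the same edgeR test against hypoxia the 8 members were Tnfrsf4 -2.05 (0.00711), Tnfrsf18 -1.74 (9.07e-05), Tnfrsf26 -1.15 (0.00705), Tnfrsf22 -0.80 (0.0398), Tnfrsf23 -0.75 (0.00149), Tnfrsf13b -0.71 (0.000289), Tnfsf13 0.78 (0.0337) and Tnfrsf12a 1.05 (0.00694). For CD30L (Tnfsf8) the direction was opposite in tumor and normoxia, since it was lower in KO tumors and higher in KO normoxia cultures, with no overlap between genotypes in either.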

How the results depend on the processing

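Of 65 called member results over all comparisons, 44 kept direction and call in each alternative run that gave a value, 21 lost the call in at least 1, and 0 reversed. The 44 include BAFFR in WT hypoxia against normoxia, which had no value in 3 alternative runs and kept its call in the 10 others. In KO comparisons 2 of 6 calls in normoxia, 5 of 9 in hypoxia and 3 of 8 in tumor were kept throughout. Counts of calls that moved by more than 1.5 times follow. In normoxia, DESeq2 called 2 members lower (1 by edgeR) and 2399 genes (1577), and leaving out both WT replicate 3 and KO replicate 4 gave 2 and 2881. In hypoxia, library size alone called 8 members lower (5). In tumor, DESeq2 and the replicate block each called 8 lower (5), the block called 2266 genes in all (908), and no filter 1363. For hypoxia against normoxia in KO, no filter and the block each left 1 lower (3). For the difference of KO effects between cultures, DESeq2 called 1 member lower (0) and 200 genes (73), and the block 40 genes. For tumor minus normoxia, DESeq2, library size alone and the block each called 4 higher (2), with 1032 genes by DESeq2 and 1084 with the block (652). For tumor minus hypoxia, library size alone called 5 higher, and no filter and the block 1 each (2). The cause of these moves was not tested.

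Without 1 library, members called higher and lower ranged from 1 to 5 and 1 to 2 in normoxia (469 to 2233 genes in all), 4 to 4 and 1 to 6 in hypoxia (3859 to 5703), and 0 to 2 and 4 to 7 in tumor (444 to 1072). For hypoxia against normoxia they ranged from 9 to 13 and 3 to 6 in WT (6817 to 8371) and from 8 to 9 and 1 to 3 in KO (6001 to 8205). The difference between cultures had 0 and 0 to 1 (40 to 100 genes). For tumor minus normoxia and tumor minus hypoxia they were 1 to 4 and 5 to 8 (334 to 815), and 1 to 4 and 5 to 7 (1208 to 1970).

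Library size alone in place of TMM moved the median of all genes by -0.123 and -0.101 (log2) in the WT and KO oxygen comparisons and by 0.135 for tumor minus normoxia. It changed the share of calls that were higher from 63.1% to 43.3% in normoxia, from 48.8% to 34.8% and from 51.9% to 40% in the WT and KO oxygen comparisons, from 39.7% to 50% for the difference between cultures, and from 33.7% to 59.5% and from 37.3% to 59.3% for tumor minus normoxia and tumor minus hypoxia. Of 173 mean levels per length, 173 stayed within 1 SD under both other scalings. In cultures same-numbered libraries correlated by -0.081 to 0.488 (normoxia) and -0.275 to 0.034 (hypoxia), so the numbers do not pair them, and with the block 5 higher and 1 lower were called in normoxia and 4 and 4 in hypoxia. A member under about 1 CPM rests on few counts. Untested members were removed by the count filter, so the main fits do not say whether they differed.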
